A study of Mus musculus with 9 samples.

Results

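The genes described here are 10 markers of Kupffer cells and other macrophages, Clec4f, Vsig4, Cd5l, Marco, Timd4, Fcna, Adgre1, Cd68, Lyz2 and Trem2. They were picked out by symbol and not by a limit on level, and all 10 were found among the 24453 genes listed. The choice was made with earlier results of these data known. RNA sequencing compared HSCs (hepatic stellate cells, the vitamin A-storing pericytes of the liver) of normal livers with collagen-producing fibroblasts from a pair of liver fibrosis models. Each group had 3 libraries, and every library was made from its own pool of cells, with 3 to 5 mice per pool. HSCs came from wild-type mice and were separated by a density gradient with no antibody. CCl4-fib came from Col1a2-GFP Tg mice, which carry green fluorescent protein under the collagen alpha 2(I) promoter, after intraperitoneal carbon tetrachloride 2 times per week for 8 weeks. NASH-fib came from male MC/COL mice, the cross of that transgene with the melanocortin 4 receptor knockout (MC4R-KO), which were given Western diet for 20 weeks from the age of 8 weeks. The methods of the study give the C57BL/6J background for wild-type and MC4R-KO mice and none for the Col1a2-GFP Tg mice. Both fibroblast groups were sorted by flow cytometry as live CD45- GFP+ cells, so they had passed a gate that removes leukocytes, and the HSCs had not. The GFP gate selects cells in which the Col1a2 promoter is active. Transgene, treatment, diet, genotype and isolation go with the group and cannot be told apart. No label says whether the pools of a group were isolated on separate occasions, so a p-value measures the spread between these 3 pools.

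Kupffer cells are the resident macrophages of the liver. They sit in the sinusoids, next to endothelial and stellate cells, and clear particles, bacteria and old red cells from portal blood. In mice they are known by Clec4f and by scavenging and complement receptors such as Vsig4, Marco and Timd4, and a growth factor signal through Csf1r keeps them alive. In steatohepatitis part of this population is known to be lost and replaced from blood monocytes, and macrophages with high Trem2 gather in fibrotic and fatty areas. Clec4f, Vsig4, Cd5l, Marco, Timd4 and Fcna (6 genes) are called Kupffer cell identity genes here, while Adgre1, Cd68 and Lyz2 mark macrophages of any origin.

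Stretches of promoter are shown for 4 genes whose levels moved in different ways, as context for the values that follow. They are the 250 bases before the RefSeq transcript start in GRCm38.p6, read on the strand of the gene, and 9 of the 10 genes were found in the RefSeq promoter table (all but Adgre1). Capitals mark the 6 letters GAGGAA, a core of the site of PU.1, the macrophage transcription factor encoded by Spi1, or TTCCTC where it lies on the other strand. The stretches lie at chr2:25627975-25628224 (minus strand) for Fcna, chrX:96293439-96293688 (minus strand) for Vsig4, chr17:48346151-48346400 (plus strand) for Trem2 and chr6:83656117-83656366 (minus strand) for Clec4f.
Fcna: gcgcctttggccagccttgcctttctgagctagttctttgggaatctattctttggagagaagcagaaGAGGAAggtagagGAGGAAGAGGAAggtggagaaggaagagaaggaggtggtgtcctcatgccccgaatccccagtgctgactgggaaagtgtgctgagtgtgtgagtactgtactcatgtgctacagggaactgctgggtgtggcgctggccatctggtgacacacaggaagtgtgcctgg
Vsig4: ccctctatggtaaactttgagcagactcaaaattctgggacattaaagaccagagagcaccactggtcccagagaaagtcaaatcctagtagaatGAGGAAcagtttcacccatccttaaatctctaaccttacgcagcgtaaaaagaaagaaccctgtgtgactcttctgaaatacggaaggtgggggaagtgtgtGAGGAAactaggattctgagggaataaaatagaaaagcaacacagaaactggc
Trem2: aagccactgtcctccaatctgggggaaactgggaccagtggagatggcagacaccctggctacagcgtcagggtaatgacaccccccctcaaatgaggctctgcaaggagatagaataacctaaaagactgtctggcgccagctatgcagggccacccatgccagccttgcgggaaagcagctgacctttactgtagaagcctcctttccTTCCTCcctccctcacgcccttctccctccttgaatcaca
Clec4f: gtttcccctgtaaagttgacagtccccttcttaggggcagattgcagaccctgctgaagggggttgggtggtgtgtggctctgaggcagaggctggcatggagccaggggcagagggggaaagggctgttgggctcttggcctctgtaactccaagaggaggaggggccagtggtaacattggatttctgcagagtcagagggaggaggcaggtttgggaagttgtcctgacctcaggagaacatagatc
The Fcna stretch held 3 matches, a pair of them side by side, that of Vsig4 held 2, that of Trem2 held 1 and that of Clec4f held 0. Over the 9 genes, 6 stretches held at least 1 match (Fcna, Vsig4, Cd5l, Marco, Cd68 and Trem2), while 23.3% of 32851 promoters of the same length did. TGCTGA, a part of the site of the MAF factors of macrophages, also searched on both strands, was found in 5 of the 9 and in 16.1% of all promoters. These are matches of letters in a short window and not measured binding. Genes with and without the PU.1 letters were found among those that fell most.

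Reads on genes numbered 3071070 to 3825522 in the HSC libraries, while CCl4-fib had 4687349 to 5634273 and NASH-fib 3289758 to 5021156. Values are those reads scaled so that each library sums to about 4471991, so 1 read is worth 0.794 to 1.46 and a value of 2.38 to 4.37 stands for 3 reads. Amplified reads are not independent molecules, and these limits cover counting error only. The knocked-out gene Mc4r had 0 reads in the HSC and CCl4-fib libraries and 4, 13 and 0 in those of NASH-fib, so it could not check the labels. Lrat, the enzyme of vitamin A storage, was at 7070 to 14894 in HSCs and at 95.4 to 458 in fibroblasts. Acta2, smooth muscle actin, was at 40.8 to 93.5 in HSCs and at 5300.2 to 8983 in fibroblasts. Of 9 genes of quiescent stellate cells, 5 were lower in each fibroblast group than in HSCs and 4 did not pass. Among the latter, Des and Pdgfrb had higher means in both fibroblast groups. Of 8 genes of activated fibroblasts, 7 were higher in CCl4-fib than in HSCs. In NASH-fib 6 were higher and 1 was lower, Postn, at 2971 to 5577 in HSCs and 908 to 2353 in NASH-fib. With edgeR 0 of the 8 were lower in NASH-fib. In CCl4-fib Postn was at 1435 to 2159, also below every HSC library, though it did not pass there. Libraries of 1 group also differed in how genes of high GC content were read. Of 3 equal classes of genes, the one with the highest GC content had a median difference from the rest of the group of -1.17 (log2) in NASH-fib replicate 1 and -0.72 in HSCs replicate 2, and of 0.90 in NASH-fib replicate 2.

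Fcna, ficolin A, a lectin that Kupffer cells secrete to start complement, had the highest level per length of the identity genes in every HSC library. Per kb of transcript and 1000000 of total value, its level in HSCs was 939 ± 597 (SD, n = 3), and that of Vsig4, the next by its mean, was 253 ± 122. Its value was 5249.9, 2111 and 9072 in HSCs replicates 1, 2 and 3, 73.0, 51.9 and 36.25 in CCl4-fib pools and 14.95, 23.2 and 91.4 in NASH-fib. Both fibroblast groups lay far below every HSC library and overlapped each other. The log2 fold change was -6.47 ± 0.70 in CCl4-fib against HSCs (limma on log2(value + 1), ± SE, n = 3 per group, adjusted p = 0.000115) and -7.14 ± 0.70 in NASH-fib against HSCs (adjusted p = 0.000103). Between the fibroblast groups it was -0.68 (adjusted p = 0.544). Fcna reached 5.81 reads per base in HSCs replicate 3, beside a counting limit of 3 reads per position whose effect on the value was not tested, and it shares 51 exon bases with the antisense gene Fcnaos, whose reads were not separated by strand.

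Clec4f, a C-type lectin that in mice is made by Kupffer cells and hardly elsewhere, was also highest in HSCs. Its value was 1353, 593 and 4479.7 in HSCs, 7.94, 26.4 and 0 in CCl4-fib pools and 36.7, 45.4 and 339 in NASH-fib. The 3 groups did not overlap, with HSCs highest and CCl4-fib lowest. The log2 fold change against HSCs was -7.94 ± 1.23 in CCl4-fib (adjusted p = 0.00104) and -4.19 ± 1.23 in NASH-fib (adjusted p = 0.0499), the latter just past the limit of 0.05 and past it in 10 of 21 alternative settings. NASH-fib against CCl4-fib gave 3.75 ± 1.23 (adjusted p = 0.0777).

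Vsig4, the complement receptor CRIg that captures opsonised particles, also stood in 3 separate groups. It was at 715, 2062 and 2055 in HSCs, 0, 12.8 and 8.59 in CCl4-fib pools and 366, 46.3 and 219 in NASH-fib. Its log2 fold change in CCl4-fib against HSCs was -8.15 ± 1.02 (adjusted p = 0.000279), the largest fall among the 10 markers in this fit, and it was 4.94 ± 1.02 higher in NASH-fib than in CCl4-fib (adjusted p = 0.0180). The difference between NASH-fib and HSCs was -3.21 ± 1.02 (adjusted p = 0.0686).

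Cd5l, a secreted protein that keeps macrophages from apoptosis, had values of 666, 1383 and 2201 in HSCs, 53.2, 28.9 and 5.72 in CCl4-fib pools and 128, 117 and 663 in NASH-fib. Again no library of any group overlapped another group, though NASH-fib replicate 3 nearly reached the lowest HSC library. Cd5l fell in CCl4-fib against HSCs (log2 fold change -5.84 ± 0.86, adjusted p = 0.000765). It was 3.28 ± 0.86 higher in NASH-fib than in CCl4-fib (adjusted p = 0.0374), and NASH-fib differed from HSCs by -2.55 ± 0.86 (adjusted p = 0.0868).

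Marco, a scavenger receptor for bacteria, was the lowest of the identity genes per length in HSCs (14.9 ± 10.0, SD), with values of 59.6, 105 and 229.5. It was read 1, 0 and 3 times in CCl4-fib (values of 0.79, 0 and 2.86) and 0, 0 and 31 times in NASH-fib (values of 0, 0 and 30.5), so NASH-fib replicate 3 held all of its NASH-fib reads. Timd4, a receptor for dying cells that marks long-lived Kupffer cells, had a like pattern. Timd4 was at 196, 472 and 383 in HSCs, 11.9, 0 and 5.72 in CCl4-fib pools and 5.44, 0 and 53.1 in NASH-fib. The fibroblast groups overlapped each other and neither overlapped HSCs. For Marco the log2 fold change against HSCs was -5.90 ± 1.25 in CCl4-fib (adjusted p = 0.00586) and -5.17 ± 1.25 in NASH-fib (adjusted p = 0.0201). For Timd4 it was -6.22 ± 1.33 (adjusted p = 0.00605) and -5.55 ± 1.33 (adjusted p = 0.0189). Since few reads lie behind the fibroblast values, these fold changes depend on the pseudocount. NASH-fib against CCl4-fib gave 0.73 for Marco and 0.67 for Timd4 (adjusted p = 0.725 and 0.763), and both turned negative without NASH-fib replicate 3 (-0.93 and -0.80).

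Adgre1, which encodes F4/80, the surface marker most used for mouse macrophages, was at 131, 348 and 563 in HSCs, 7.14, 5.10 and 21.0 in CCl4-fib pools and 196, 34.7 and 182 in NASH-fib. CCl4-fib lay below both other groups, and NASH-fib overlapped HSCs. Adgre1 was lower in CCl4-fib than in HSCs (log2 fold change -4.85 ± 0.80, adjusted p = 0.00143) and 3.40 ± 0.80 higher in NASH-fib than in CCl4-fib (adjusted p = 0.0262). For NASH-fib against HSCs the value was -1.45 ± 0.80 (adjusted p = 0.341).

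Lyz2, lysozyme of macrophages, monocytes and neutrophils, was at 1472, 932 and 4598 in HSCs, 205, 497 and 467 in CCl4-fib pools and 2929, 2282 and 3945 in NASH-fib. It was the member with the highest value per length in both fibroblast groups, at 82.8 ± 34.2 (SD) in CCl4-fib and 649 ± 178 in NASH-fib. It was lower in CCl4-fib than in HSCs (log2 fold change -2.35 ± 0.58, adjusted p = 0.0123) and was 3.04 ± 0.58 higher in NASH-fib than in CCl4-fib (adjusted p = 0.0141). NASH-fib overlapped HSCs (log2 fold change 0.69, adjusted p = 0.584). Lyz2 also passed the counting limit of 3 reads per position, at 3.82 reads per base in NASH-fib replicate 3 (4014 reads on 1051 bases). HSCs replicate 3 passed it too, with 3846 reads. The effect on the values of Lyz2 was not tested. Lyz1 is a near copy of Lyz2, and reads that match both cannot be assigned with certainty. Lyz1 was at 112, 72.8 and 359.9 in HSCs, 16.7, 43.4 and 31.5 in CCl4-fib pools and 269, 161 and 352 in NASH-fib, so both copies were lowest in CCl4-fib.

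Cd68, a lysosomal protein of macrophages and other phagocytes, did not separate the groups. It was at 148, 42.2 and 787 in HSCs, 26.2, 86.75 and 145 in CCl4-fib pools and 35.3, 184 and 454 in NASH-fib, and all 3 groups overlapped. The log2 fold changes were -1.29 ± 1.13 for CCl4-fib against HSCs, -0.24 ± 1.13 for NASH-fib against HSCs and 1.05 ± 1.13 for NASH-fib against CCl4-fib, with adjusted p = 0.417, 0.953 and 0.568. The lowest Cd68 library of each group was the one whose label carries the date 11-3 and these include the pair that read genes of high GC content least. With the GC correction the 3 values were -1.88, -0.44 and 1.44, and in all 21 alternative settings no difference of Cd68 passed.

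Trem2, a lipid receptor of macrophages in fatty and scarred tissue, ran the other way. It was at 4.68, 23.3 and 11.96 in HSCs, 121, 145 and 87.8 in CCl4-fib pools and 9.52, 24.05 and 36.4 in NASH-fib. Every CCl4-fib library lay above all others, and NASH-fib overlapped HSCs. Trem2 rose by 3.27 ± 0.66 in CCl4-fib against HSCs (adjusted p = 0.00456) and was lower in NASH-fib than in CCl4-fib (log2 fold change -2.45 ± 0.66, adjusted p = 0.0419). Trem2 has a GC content of 57.5%, above that of 89% of the genes tested, and after each library was corrected for GC content the latter difference was -1.43 with adjusted p = 0.190. It passed in 9 of 21 alternative settings and not with edgeR (adjusted p = 0.0534), nor without any single fibroblast library (adjusted p of 0.0564 to 0.159). NASH-fib and HSCs differed by 0.82 ± 0.66 (adjusted p = 0.567).

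**Figure D1:**
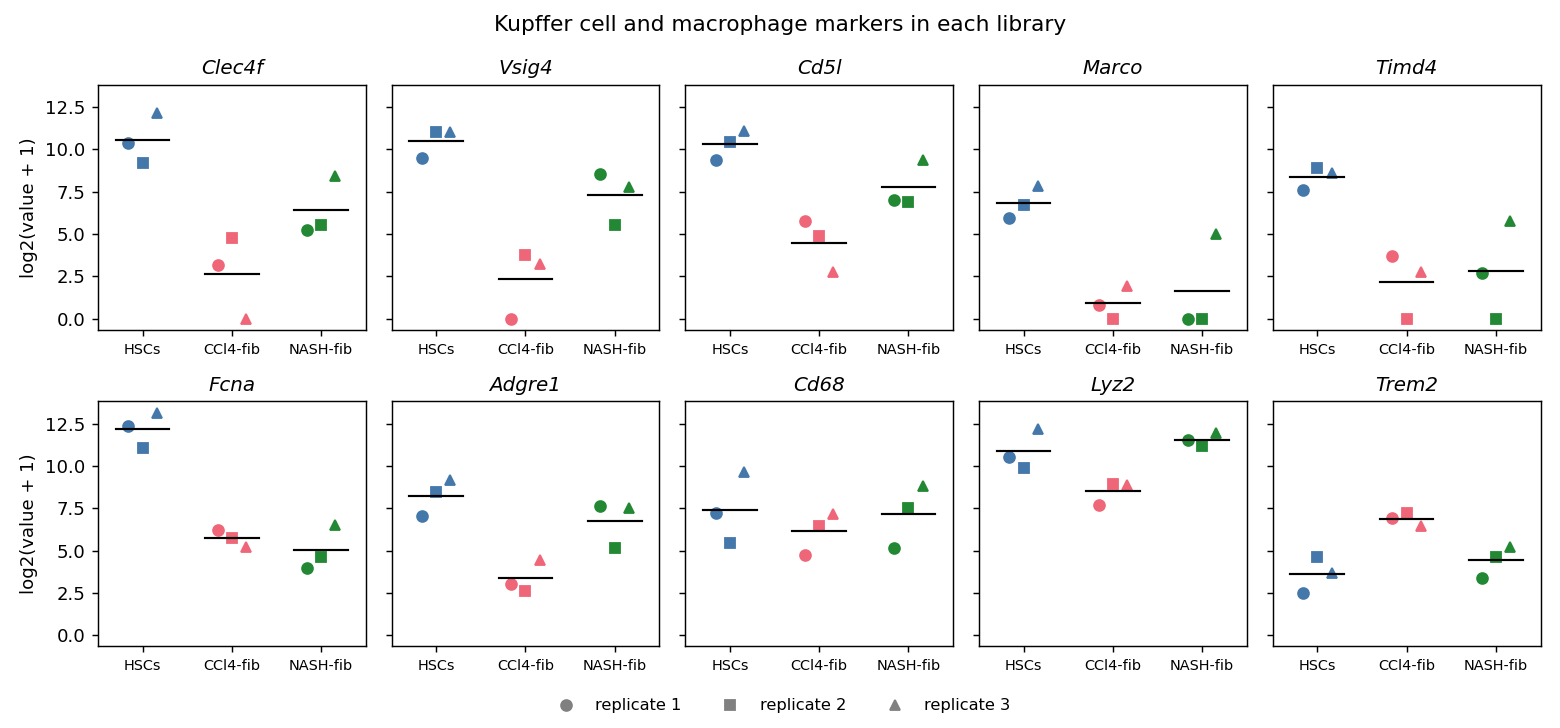
Values of the 10 markers in each library, as log2(value + 1), with 1 panel per gene, points for replicates 1 to 3 of each group and a line at the group mean. The 6 identity genes are highest in HSCs, CCl4-fib is lowest for Adgre1 and Lyz2, and CCl4-fib is highest for Trem2.

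All 10 markers passed the filter on low reads, which kept 13651 genes. Against HSCs, 8 of the 10 passed as lower in CCl4-fib (a change of 1 or more on the log2 scale with an adjusted p below 0.05), and 1 as higher. Over all genes tested 11.7% were lower and 16.2% higher by the same limits. In NASH-fib against HSCs, 4 were lower (Clec4f, Marco, Timd4 and Fcna), with 4.3% of all genes lower, and 0 were higher, with 8.23% of all genes higher. With edgeR 1 marker, Fcna, was lower and 0 were higher in NASH-fib, with DESeq2 3 and 0, and at an unadjusted p under 0.05 limma gave 6 and 0. In NASH-fib against CCl4-fib, 4 were higher (Vsig4, Cd5l, Adgre1 and Lyz2), with 4.97% of all genes higher, and 1, Trem2, was lower, with 5.66% of all genes lower. The comparisons share libraries, so their counts are not independent of each other. The median log2 fold change of the 10 markers was -5.87, -2.88 and 2.04 in these comparisons, beside 0.18, -0.02 and -0.11 over all genes. The libraries did not overlap for 8 lower markers and 1 higher in CCl4-fib against HSCs (20.9% and 27.8% of all genes), for 6 lower in NASH-fib against HSCs (11.6%), and for 5 higher and 1 lower in NASH-fib against CCl4-fib (17.1% and 22.0%). Each of these had p = 0.1 in an exact permutation test (two-sided), the smallest that 3 libraries against 3 allow.

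**Figure D2:**
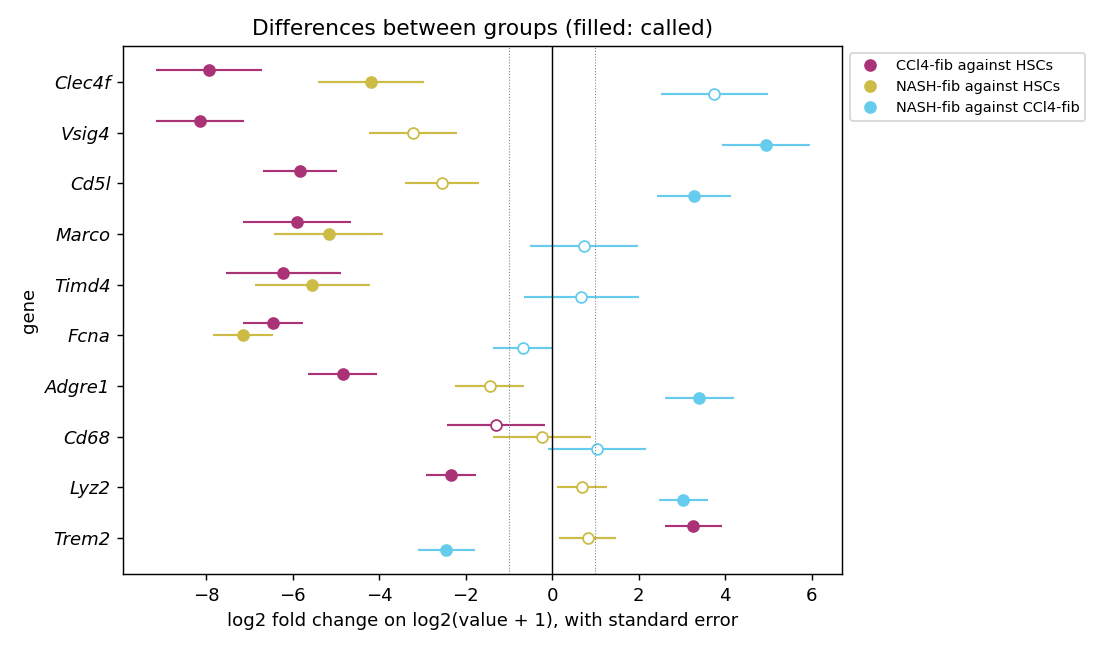
Log2 fold changes of the 10 markers on the scale of log2(value + 1), with standard errors, for the 3 comparisons. Filled points passed the limits, and the dotted lines stand at -1 and 1. The 6 identity genes lie left of zero in both comparisons with HSCs, and Trem2 lies right of it at 3.27 in CCl4-fib.

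The count of markers higher in NASH-fib than in CCl4-fib fell most without NASH-fib replicate 3. Without it 0 of the 10 passed in limma as higher (4 at an unadjusted p under 0.05), and of all genes tested 113 passed as higher in place of 678. The differences were then 4.69 for Vsig4 (adjusted p = 0.0646), 3.03 for Adgre1 (adjusted p = 0.0914), 2.83 for Lyz2 (adjusted p = 0.0560) and 2.47 for Cd5l (adjusted p = 0.117). The count was 2 without replicate 1 of either fibroblast group and without CCl4-fib replicate 2. For NASH-fib against HSCs, 1 marker was lower without HSCs replicate 3 or without NASH-fib replicate 2, and it was Fcna. Of 21 alternative settings, Vsig4, Cd5l, Adgre1 and Lyz2 passed in 20, 14, 16 and 19 as higher in NASH-fib than in CCl4-fib, and Clec4f, Marco, Timd4 and Fcna in 10, 15, 15 and 21 as lower in NASH-fib than in HSCs. The count lower in CCl4-fib against HSCs was 7 or 8 whichever library was left out.

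Libraries of the groups share some dates in their labels, and differences were also read within a date. For CCl4-fib against HSCs, all 9 markers that had passed kept their direction on both shared dates. The 4 of NASH-fib against HSCs did so on the 1 shared date, and the 5 of NASH-fib against CCl4-fib on both of theirs. Each of these values compares single libraries, except for the date 11-7, which has 2 of NASH-fib. For every marker that had passed, the libraries of the compared groups did not overlap. Its direction within a date therefore could not differ, and these counts are no check on the date. With the date as a term in the fit, CCl4-fib against HSCs kept its direction for these markers and Trem2 missed the limit (2.56, adjusted p = 0.0525).

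Summed over the 6 identity genes, the values came to 8240, 6726 and 18420 in HSCs, 147, 120 and 59 in CCl4-fib pools and 551, 232 and 1397 in NASH-fib. Every NASH-fib library lay above every CCl4-fib library and below every HSC library. In pooled cells, fewer Kupffer cells and less of this RNA per cell cannot be told apart. Along the 9 libraries, the level of each marker was set against the sum of the other identity genes on the log2 scale. Pearson's r was 0.80 to 0.94 for the 6 identity genes, 0.86 for Adgre1, 0.60 for Lyz2, 0.39 for Cd68 and -0.76 for Trem2, as a description of 9 libraries that fall into 3 groups.

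Sums of endothelial and hepatocyte markers were also lowest in CCl4-fib. For the counts of these lists and those below, the shares of all genes are the ones given above with the 10 markers. All 10 sinusoidal endothelial markers were lower in CCl4-fib than in HSCs, 8 were lower in NASH-fib than in HSCs, and 9 were higher in NASH-fib than in CCl4-fib, the 8 being 1 with the date as a term. Their sum was 13426 to 21166 in HSCs, 305 to 393 in CCl4-fib and 1387 to 4819 in NASH-fib, and none was at 0 in any library. Cdh5, the cadherin of endothelial junctions, ran from 548 to 948 in HSCs, from 2.55 to 3.97 in CCl4-fib and from 40.1 to 192 in NASH-fib. Of 10 hepatocyte markers, 8 were lower in CCl4-fib than in HSCs, 0 passed in NASH-fib against HSCs (0 also with edgeR, with DESeq2 and at an unadjusted p under 0.05 in limma) and 7 were higher in NASH-fib than in CCl4-fib. The hepatocyte sum was 21715 to 42985 in HSCs, 2116 to 2983 in CCl4-fib and 7693 to 29199 in NASH-fib, and none of these genes was at 0 either. Alb, albumin, was at 617 to 829 in CCl4-fib and at 1787 to 14897 in NASH-fib. NASH-fib replicate 2, the lowest of its group for the endothelial and hepatocyte sums, was also the lowest for the identity genes. Without NASH-fib replicate 3, 3 of the endothelial and 2 of the hepatocyte genes were higher in NASH-fib than in CCl4-fib. Leaving out CCl4-fib replicate 2 gave 5 and 1, and leaving out CCl4-fib replicates 1 and 3 in turn gave 2 and 4 hepatocyte genes. The part of these cells in the marker values was not tested.

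**Figure D3:**
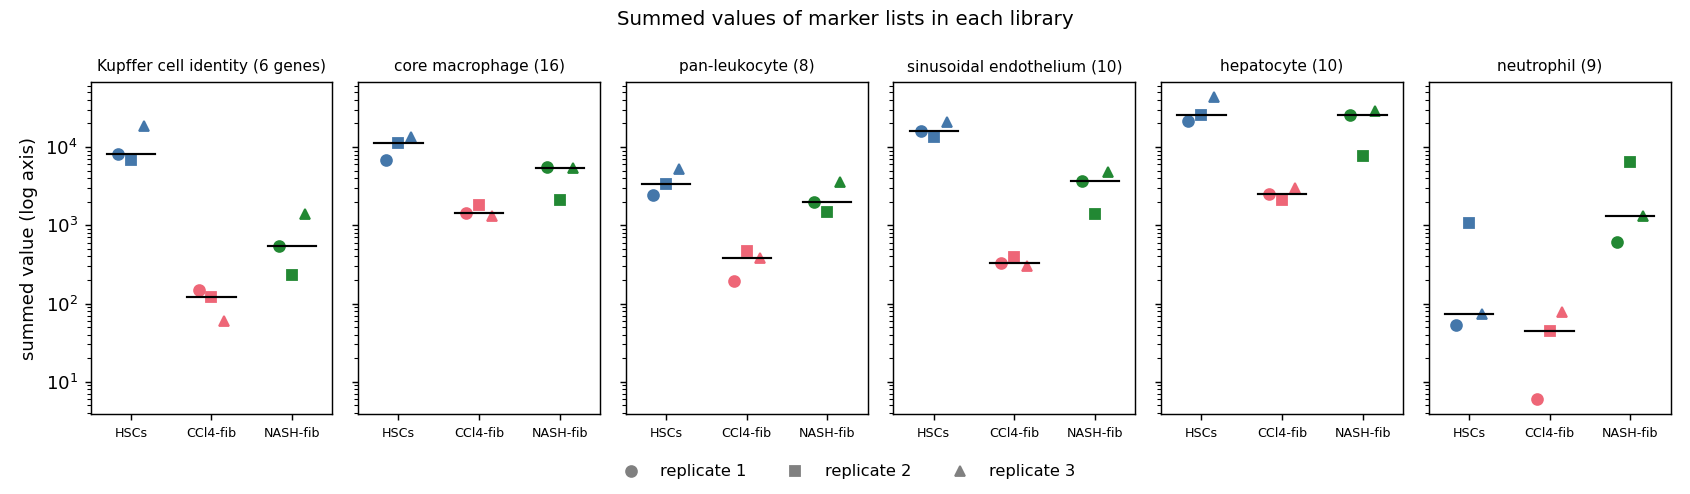
Summed values of marker lists in each library on a log axis, with points for replicates 1 to 3 of each group and a line at the group median. The sums of the 6 identity genes and of the endothelial and hepatocyte lists are lowest in CCl4-fib, where the identity genes reach at most 147.

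Ptprc encodes CD45, the surface protein by which leukocytes were gated out of both fibroblast groups. It was at 88.8, 315 and 258 in HSCs, 8.73, 25.5 and 24.8 in CCl4-fib pools and 319, 62.3 and 312 in NASH-fib. CCl4-fib lay below the other groups (log2 fold change against HSCs -3.37, adjusted p = 0.00698), and NASH-fib was 3.30 above CCl4-fib (adjusted p = 0.0233). NASH-fib overlapped the ungated HSCs (log2 fold change -0.07, adjusted p = 0.982). Of 8 pan-leukocyte genes, 7 were lower in CCl4-fib than in HSCs, 0 passed in NASH-fib against HSCs (0 also with edgeR and DESeq2, and 1 lower at an unadjusted p under 0.05 in limma) and 5 were higher in NASH-fib than in CCl4-fib (Ptprc, Tyrobp, Lcp1, Cd53 and Cd52). Their medians were -3.29, -0.59 and 2.75 on the log2 scale. Among those 5, Lcp1, an actin bundler of leukocytes, was at 564, 312 and 855 in NASH-fib and at 21.4, 64.6 and 96.4 in CCl4-fib, and Cd53, a leukocyte tetraspanin, was at 806, 199 and 503 against 30.2, 81.7 and 48.7. Tyrobp, the adaptor through which Trem2 signals, was at 36.5, 62.9 and 55.3 in CCl4-fib, below HSCs (376 to 1211) and, at an adjusted p of 0.0490, below NASH-fib (93.8 to 744), so Tyrobp and Trem2 moved in opposite directions in CCl4-fib. The count of leukocyte genes higher in NASH-fib than in CCl4-fib was 1 and 3 when NASH-fib replicates 3 and 2 were left out in turn, and 2 without any single CCl4-fib library.

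Genes that macrophages share whatever their origin were counted from a list of 16. Against HSCs, 13 were lower and 1 was higher in CCl4-fib (median log2 fold change -3.83), and 3 were lower in NASH-fib (Csf1r, Aif1 and Mrc1, median -1.29). In NASH-fib against CCl4-fib, 8 were higher and 1 was lower (median 2.16), and without NASH-fib replicate 3 this was 3 higher and 1 lower, while leaving out CCl4-fib replicates 1, 2 and 3 in turn gave 4, 4 and 5 higher. The 3 lower in NASH-fib than in HSCs were 1 without HSCs replicate 2 or 3 and in the fit of both groups alone, 0 with the date as a term, and 5 with DESeq2, a pseudocount of 5 or the GC correction. Mrc1, the mannose receptor, fell most in CCl4-fib (log2 fold change -7.20 ± 0.82, adjusted p = 0.000163). Its value lay between 2038 and 3470.1 in HSCs, 12.4 and 19.8 in CCl4-fib pools and 57.9 and 962 in NASH-fib. Sinusoidal endothelium is known to express Mrc1 as well. Aif1, the actin binding protein Iba1, was at 826 to 960 in HSCs, 3.82 to 15.9 in CCl4-fib and 88.2 to 258 in NASH-fib, with no overlap of any groups, and all 3 of its differences passed. Msr1, a scavenger receptor, and Mpeg1, perforin-2, were lower in CCl4-fib than in HSCs (log2 fold changes -5.30 and -5.39, adjusted p = 0.00365 and 0.00333) and higher in NASH-fib than in CCl4-fib by 3.83 and 4.17 (adjusted p = 0.0413 and 0.0314). For Msr1 the fibroblast groups overlapped, with NASH-fib replicate 2 at 44.5 and CCl4-fib replicate 3 at 50.6, and for Mpeg1 they did not.

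Csf1r, the receptor on which Kupffer cells depend, was at 207, 520 and 520 in HSCs, 65.1, 82.5 and 43.9 in CCl4-fib pools and 84.3, 58.8 and 156 in NASH-fib. It was lower than in HSCs in both fibroblast groups (log2 fold changes -2.61 and -2.05, adjusted p = 0.00382 and 0.0238) and the fibroblast groups overlapped. Its exons share up to 873 bases with Hmgxb3 on the other strand, so part of this signal may belong to that gene. C1qa, a chain of complement C1q, was at 33.9, 91.7 and 259 in HSCs, 15.1, 27.2 and 20.0 in CCl4-fib pools and 5.44, 16.9 and 36.4 in NASH-fib, and none of its 3 differences passed (adjusted p = 0.0726, 0.0721 and 0.782). Cd14, the endotoxin coreceptor, was the gene of the 16 that was higher in CCl4-fib, at 957, 1034 and 626 against 31.6, 32.0 and 100.4 in HSCs and 27.2, 158 and 119.9 in NASH-fib. It was chosen for mention after its values were seen. Spi1, which encodes PU.1, was read little, at 11.7 to 33.5 in HSCs, 0 to 1.70 in CCl4-fib and 1.78 to 5.44 in NASH-fib, and was likewise chosen afterwards.

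A further 14 genes of resident Kupffer cells gave 10 lower in CCl4-fib against HSCs, 4 lower in NASH-fib against HSCs, and 5 higher in NASH-fib against CCl4-fib, with medians of -4.0, -2.30 and 1.51. The 4 were also 4 with edgeR but 9 with DESeq2, 8 with a pseudocount of 5, 7 with the GC correction and 6 without NASH-fib replicate 3, and 10 were lower at an unadjusted p under 0.05. The 5 were 3 with the date as a term and 0 without NASH-fib replicate 3 or without CCl4-fib replicate 2 (in limma, with 6 at an unadjusted p under 0.05 in the former), and 3 without NASH-fib replicate 1. In the other direction, DESeq2 gave 1 higher in CCl4-fib against HSCs and 1 lower in NASH-fib against CCl4-fib. At an unadjusted p under 0.05 limma gave 1 and 2 there. Id3 was at 467 to 3240 in CCl4-fib and 572 to 602 in HSCs (log2 fold change 1.43, adjusted p = 0.124). Id3 and Hmox1 differed by -1.68 and -1.91 in NASH-fib against CCl4-fib (adjusted p = 0.119 and 0.0920). Cd163, the receptor for haemoglobin and haptoglobin, was low in both fibroblast groups. It was at 222, 917 and 356 in HSCs, 3.97, 1.70 and 12.4 in CCl4-fib pools and 17.7, 0.89 and 35.4 in NASH-fib, lower in both fibroblast groups (-6.21 and -5.27, adjusted p = 0.00174 and 0.00733). Folr2, a folate receptor, and Clec1b, a lectin-like receptor, were lowest in CCl4-fib. Folr2 was at 193, 223 and 717 in HSCs, 0, 2.55 and 4.77 in CCl4-fib pools and 28.6, 34.7 and 145 in NASH-fib, and NASH-fib was 4.29 above CCl4-fib (adjusted p = 0.0158). Clec1b was at 747, 687 and 967 in HSCs, 12.7, 12.8 and 0 in CCl4-fib pools and 296, 37.4 and 197 in NASH-fib, and NASH-fib was 4.52 above CCl4-fib (adjusted p = 0.0234). Cd207, langerin, fell by 5.87 in CCl4-fib against HSCs (adjusted p = 0.00219) and was 3.82 higher in NASH-fib than in CCl4-fib (adjusted p = 0.0431).

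Genes of monocytes and monocyte-derived macrophages, 10 in all, were counted in the same way. In CCl4-fib against HSCs, 3 were lower and 1 was higher (median -0.72), beside 11.7% and 16.2% of all genes. The 3 were 1 without HSCs replicate 1 or 2 or without CCl4-fib replicate 1 or 3. In NASH-fib, 3 were higher than in HSCs (S100a4, F13a1 and Ly6c2, and 5 without HSCs replicate 2, median 2.88), and 4 were higher than in CCl4-fib (Ccr2, Chil3, F13a1 and Itgam, median 2.83). The latter count was 0 without NASH-fib replicate 3 (4 at an unadjusted p under 0.05 in limma) and 2 without NASH-fib replicate 1 or without CCl4-fib replicate 1 or 2. Ccr2, the chemokine receptor that brings monocytes into tissue, was at 59.6, 165 and 32.3 in HSCs, 7.94, 23.0 and 1.91 in CCl4-fib pools and 559, 81.1 and 249.6 in NASH-fib (4.72 above CCl4-fib, adjusted p = 0.0154). F13a1, coagulation factor XIII A, was read at most 1 time in any HSC library and at most 2 times in any CCl4-fib library, and had values of 20.4, 48.1 and 94.4 in NASH-fib, above both (adjusted p = 0.00140 and 0.0114). Chil3, a secreted chitinase-like lectin also made by neutrophils, was at 156, 216 and 84.5 in NASH-fib and at 0, 3.40 and 14.3 in CCl4-fib (adjusted p = 0.0357). S100a4, a calcium-binding protein known in fibroblasts as well as in myeloid cells, was at 0 to 12.9 in HSCs, 148 to 238 in CCl4-fib and 243 to 836 in NASH-fib. Neutrophil markers also rose in NASH-fib against CCl4-fib, 5 of 8 tested, with 1 without NASH-fib replicate 3 or CCl4-fib replicate 2 and 2 without CCl4-fib replicate 1 or 3. Their sum over 9 genes was 53, 1070 and 74 in HSCs, 6, 44 and 78 in CCl4-fib pools and 614, 6444 and 1328 in NASH-fib, with 7 of the 9 genes at 0 in CCl4-fib replicate 1. Their part in Lyz2 and Chil3, which neutrophils also make, was not tested.

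Trem2 belongs to a set of genes known from macrophages of fatty and scarred liver. Of 10 others of this set, 5 were higher in CCl4-fib than in HSCs (median 1.42) and 3 passed as higher in NASH-fib against HSCs (median 0.56). With DESeq2, 6 were higher and 1 was lower in CCl4-fib. Apoe, apolipoprotein E, lay below every HSC library in CCl4-fib, at 1422.5 to 1764.8 against 1995 to 5361. It did not pass in limma (log2 fold change -1.02, adjusted p = 0.120). In NASH-fib against CCl4-fib 0 passed in limma (median -0.88), where at an unadjusted p under 0.05 there were 1 higher and 4 lower, and 1 was higher with edgeR and 1 with DESeq2. Gpnmb, a lysosomal glycoprotein, was at 8.18, 1.46 and 21.5 in HSCs, 423, 488 and 314 in CCl4-fib pools and 76.1, 471 and 285 in NASH-fib, higher in both fibroblast groups (5.66 and 4.77, adjusted p = 0.000730 and 0.00315). Spp1, osteopontin, was at 32.7, 156 and 159 in HSCs, 938, 1527 and 2421 in CCl4-fib pools and 10729.5, 4847 and 5255 in NASH-fib (4.0 and 6.10 above HSCs, adjusted p = 0.00107 and 0.000143). Cd9, a tetraspanin, rose by 2.82 and 2.91 (adjusted p = 0.00449 and 0.00654). Lpl, lipoprotein lipase, rose by 1.43 in CCl4-fib (adjusted p = 0.0101). Spp1, Cd9 and Lpl are also made by cells that are not macrophages. In the CCl4-fib libraries Trem2, Gpnmb and Cd14 were above HSCs, while Clec4f, Adgre1, Csf1r and Ptprc were below them. These genes come from several lists and were set side by side after their values were seen. Of the 16 genes that macrophages share, Cd14 was the only 1 that passed as higher in CCl4-fib, and 13 were lower.

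**Figure D4:**
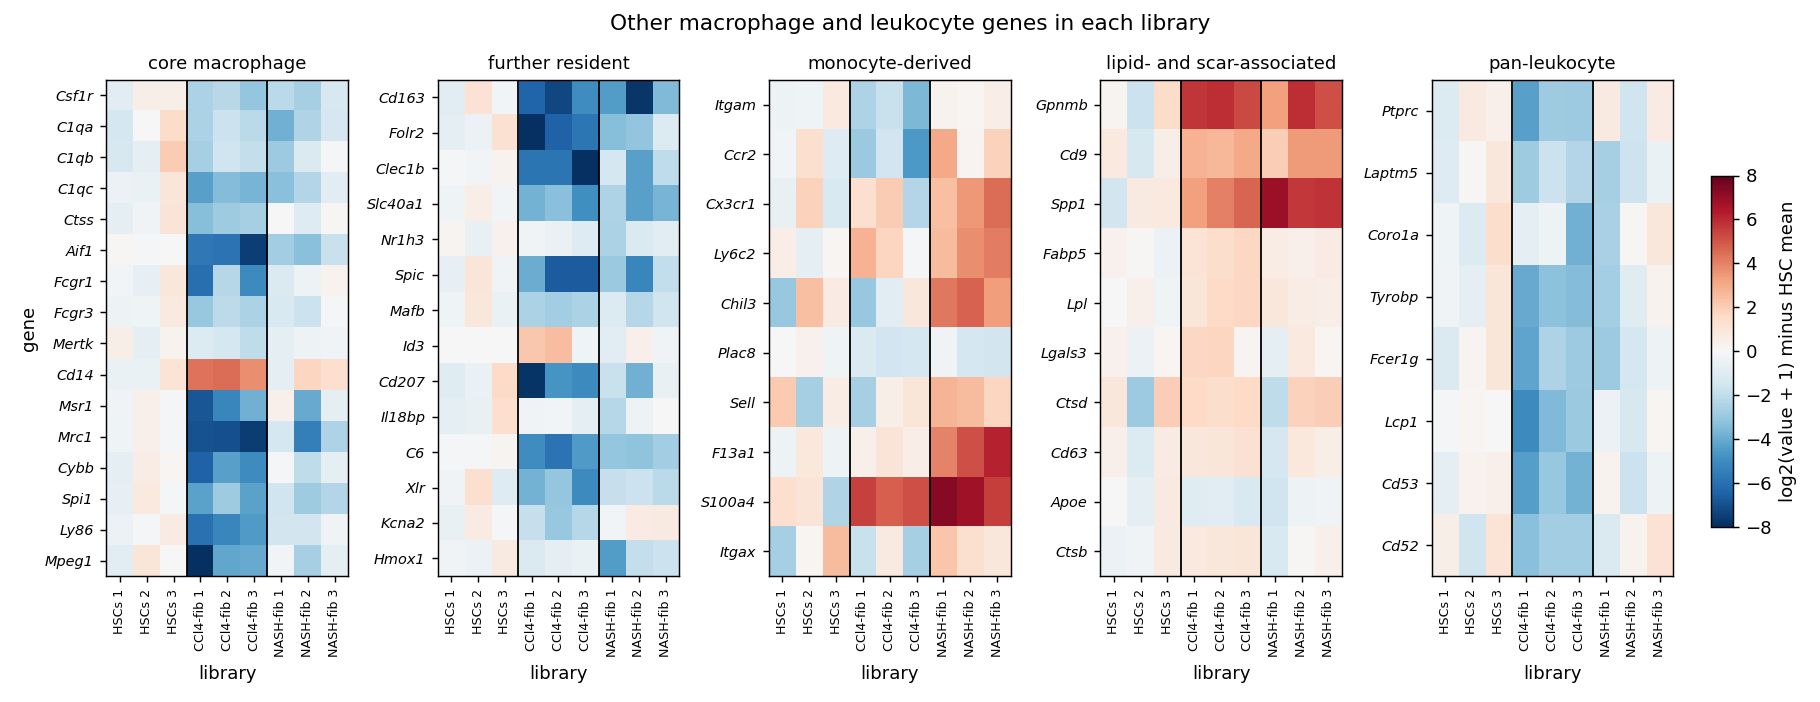
Log2(value + 1) of 5 further gene lists in each library, minus the mean of the HSC libraries, with colours limited at 8 in either direction and lines between groups. Core, resident and pan-leukocyte genes are lower in CCl4-fib, apart from Cd14, Id3 and a few others, monocyte genes such as F13a1 are higher in NASH-fib, and Gpnmb, Cd9 and Spp1 are higher in both fibroblast groups.

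Stellate cells and fibroblasts make signals that keep Kupffer cells or call monocytes, and 12 of these were read beside the markers. In CCl4-fib against HSCs, 5 were higher and 4 lower, beside 16.2% and 11.7% of all genes. The 5 were 3 without HSCs replicate 1 or 2, CCl4-fib replicate 1 or 2 or NASH-fib replicate 3. In NASH-fib against HSCs, 2 were higher (Ccl7 and Gas6) and 4 lower, beside 8.23% and 4.3% of all genes. The 2 were 0 or 1 without any single HSC library and 0 without NASH-fib replicate 2 or 3. In NASH-fib against CCl4-fib 2 were lower (Ccl2 and Ccl7), beside 5.66% of all genes. Csf1, a ligand of Csf1r, was at 632, 677 and 520 in HSCs, 483, 461 and 537 in CCl4-fib pools and 451, 643 and 535 in NASH-fib, with no difference that passed. Il34, the other ligand, varied widely between libraries and none of its differences passed (adjusted p = 0.506, 0.728 and 0.260), at 140, 20.4 and 697 in HSCs, 473, 251 and 364 in CCl4-fib pools and 2.72, 366 and 95.3 in NASH-fib. Ccl7, a monocyte attractant, was at 201, 121 and 123 in HSCs, 1872, 1742 and 3297 in CCl4-fib pools and 370, 468 and 418 in NASH-fib (3.93 and 1.52 above HSCs, adjusted p = 5.69e-05 and 0.0187), and it was lower in NASH-fib than in CCl4-fib (log2 fold change -2.40, adjusted p = 0.00837). Ccl2, the ligand of Ccr2, was at 2495 to 3837 in CCl4-fib and at 324 to 564 in NASH-fib (log2 fold change -2.66, adjusted p = 0.00562), while Ccr2 itself was higher in NASH-fib. Gdf2 and Bmp10, which encode BMP9 and BMP10, were lower than in HSCs in both fibroblast groups. Gdf2 was at 2231 to 4977 in HSCs, 79.2 to 286 in CCl4-fib and 171 to 301 in NASH-fib, and Bmp10 at 62.6 to 208, 0 to 6.80 and 0.89 to 5.90. Gas6, a bridge between dying cells and the receptor Mertk, rose by 4.40 in CCl4-fib and 3.26 in NASH-fib against HSCs (adjusted p = 0.00297 and 0.0251), although NASH-fib overlapped HSCs.

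Outside all of these lists, the genes whose level followed the sum of the 6 identity genes most closely over the 9 libraries were Egfl7 (Pearson's r = 0.982), Tesk1 (0.981), Tfec (0.98), Thsd1 (0.974) and Dnase1l3 (0.973), given as a description. Dnase1l3 was at 4201, 2155 and 8148 in HSCs, 43.7, 42.5 and 50.6 in CCl4-fib pools and 363, 210.2 and 1552 in NASH-fib. Tfec was at 186, 236 and 171 in HSCs, 2.38, 2.55 and 0 in CCl4-fib pools and 16.3, 2.67 and 26.5 in NASH-fib. Tesk1 was similar in direction with a far smaller range, from 31.8 in CCl4-fib replicate 1 to 81.3 in HSCs replicate 3.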

How the data were processed

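Cells of 3 groups were sequenced in 9 libraries. Per the labels and the methods of the study, SMARTer amplification of the RNA preceded single-end sequencing, and reads were aligned to mm10 with STAR. Per the file headers, the authors counted reads of either strand on RefSeq exons with HOMER, with at most 3 reads per position, and deposited a signal per gene and library, scaled for DESeq2 over 10 libraries, of which 9 are analysed here. Of the per-sample columns, 0 were left unused. Whole reads were recovered for at least 99.98% of values (tolerance 0.0051).

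The design named edgeR for counts and limma for other units. Since the values are scaled, limma 3.58.1 was used on log2(value + 1), with 1 fit over the 3 groups and a spread that depends on the mean level, for genes kept by filterByExpr of edgeR 4.0.16 (minimum count 10 on recovered reads). Adjusted p-values are Benjamini-Hochberg values over 13651 genes, and a gene passed with a change of 1 or more on the log2 scale and an adjusted p below 0.05. Fold changes on this scale understate those of low genes. Per-length values are per kb of the transcript length given in the file, with each library brought to a total of 1000000. Alternatives were DESeq2 1.42.0, edgeR, other scalings, pseudocounts and filters, 2-group fits, the replicate number or the date of the labels as terms, each library left out and, added after the data were seen, a correction for GC content (known for 99.4% of genes).

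The markers, the gene lists and the rule for named genes were chosen with earlier results of these data known. The rule names all 10 markers, up to 4 genes per list with the largest change, Ptprc, Csf1r, C1qa, Csf1 and Il34, and the 5 genes most like the summed identity genes.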

Additional observations from a re-analysis of the deposited data

How the results depend on the processing

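The direction and the side of the threshold of most results held. Among 358 comparisons with another setting and 270 with a library left out, 323 and 233 stayed the same, 23 and 29 missed the threshold, 9 and 3 newly passed it and 3 and 5 turned their sign. These totals include markers that had not passed and so could not miss the threshold. Markers that had passed in CCl4-fib against HSCs did so in 20 or 21 of 21 alternative settings. Those that had passed in a comparison with NASH-fib did so in 9 to 21 of 21.

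The count of markers lower in NASH-fib than in HSCs, 4, was 1 with edgeR and 1 with the date as a term, and 1 to 5 with a library left out. The 1 marker higher in CCl4-fib than in HSCs was 0 with the date as a term and 1 whichever library was left out, and the 8 lower ones were 7 to 8. The 1 marker lower in NASH-fib than in CCl4-fib was 0 with edgeR, without a filter on low values, with the replicate block, with the date as a term and with the GC correction, and 0 to 1 with a library left out. The 4 higher ones were 0 to 4 with a library left out.

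Log2 fold changes that turned their sign had not passed in the first place. For NASH-fib against HSCs, Cd68 was at 0.85 without HSCs replicate 3 and 0.76 without NASH-fib replicate 1 (-1.24 to 0.85 over all libraries left out), and Trem2 at -0.034 with the date as a term. For NASH-fib against CCl4-fib, Marco was at -0.93 without NASH-fib replicate 3 (-0.93 to 1.56 over all libraries). Timd4 was at -0.002 with the date as a term, and at -0.41 when CCl4-fib replicate 2 and -0.80 when NASH-fib replicate 3 was left out (-0.80 to 2.08 over all libraries). Fcna was at 0.094 with the GC correction. The cause was not tested.

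Same-numbered libraries of different groups correlated from -0.473 to 0.514 in their deviations from the group means, and 3 of 9 libraries correlated best with their own number, so the numbers were not taken as pairs. With the replicate block, 8 markers were lower and 1 higher in CCl4-fib against HSCs, 3 lower in NASH-fib against HSCs, and 3 higher and 0 lower in NASH-fib against CCl4-fib. With the date as a term, 0 monocyte genes were lower in CCl4-fib than in HSCs in place of 3, 1 was higher in NASH-fib than in HSCs in place of 3, and 3 pan-leukocyte and 3 neutrophil genes were higher in NASH-fib than in CCl4-fib in place of 5 and 5. Of the niche signals, 3 in place of 5 were then higher in CCl4-fib than in HSCs, as with edgeR, without the filter and with the GC correction, and 0 in place of 2 were higher in NASH-fib, as in the fit of both groups alone. With a minimum count of 30, 2 monocyte and 3 neutrophil genes were higher in NASH-fib than in CCl4-fib, and with a pseudocount of 5, 5 monocyte genes passed as higher in NASH-fib against HSCs. In the fit of NASH-fib and CCl4-fib alone, Marco and Timd4 did not pass the filter. Another scaling moved the median log2 fold change of all genes in NASH-fib against CCl4-fib from -0.11 to at most 0.14, with edgeR. Depth limits Marco and Timd4, with few reads in fibroblasts.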
